A study of Mus musculus with 22 samples.

Results

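The genes described here are 9 that write, maintain, erase or read DNA methylation, namely Dnmt1, Dnmt3a, Dnmt3b, Uhrf1, Tet1, Tet2, Tet3, Mbd1 and Mbd2. They were chosen by name from the 37786 genes of the count table, and the rule used no measured value, although earlier results of these data were known when it was made. All 9 were found in the table and had at least 10 counts in at least 10 mice, the minimum for testing, which 17524 genes met. Dnmt3b and Uhrf1 fell below 10 counts in some mice, and the other 7 genes did not.

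RNA was sequenced from bulk anterior cingulate cortex (ACC) of 22 wildtype male C57BL/6J mice that were 8 weeks old when the experiment began. All of them carried channelrhodopsin-2 fused to EYFP, delivered bilaterally to the basolateral amygdala (BLA) by an AAV5 with the excitatory-neuron promoter CaMKIIa, and a fibre over the ACC on 1 side. Blue light was given over 9 sessions to 10 stimulated mice, and 12 control mice went through the same handling with the light off. The ACC was taken 48 h after the last session, and the tissue came from both hemispheres although the fibre was unilateral. The comparison asks what repeated activation of the BLA input leaves behind in the ACC transcriptome.

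Cytosine methylation in mammals is laid down mainly on CG pairs. Dnmt3a and Dnmt3b place it de novo, and Dnmt1, guided by Uhrf1 to hemimethylated DNA, copies it after replication. The Tet dioxygenases oxidise 5-methylcytosine to 5-hydroxymethylcytosine and beyond, which opens the way to removal, and the methyl-CpG-binding domain proteins dock on methylated DNA and recruit repressors. Neurons are postmitotic, yet they are known for high 5-hydroxymethylcytosine and for methylation outside CG pairs that Dnmt3a places after birth.

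Total counts per mouse ranged from 23090483 to 43668462. The library numbers in the labels form 2 runs, 1 to 11 (6 control and 4 stimulated mice) and 12 to 23 (6 and 6), and most of the genes tested differed between them. Mitochondrial genes took a median of 2.21% of counts in the first run and 1.12% in the second. The labels do not say what the runs are, and the RNA integrity and batch that the study used as covariates were not in the labels, so the comparison of stimulated with control mice is given over all mice, with the run as a covariate and within the runs. No pair of libraries agreed within sampling noise: across 231 pairs the smallest mean chi-square per gene was 10.0. All 7 cortical neuron markers were present. In the stimulated mice, all 8 oligodendrocyte markers had a negative fold change with an unadjusted p under 0.05, and controls 9 and 11 had the highest levels. The fits of the 9 genes between stimulated and control mice were therefore also made without those 2 mice. In bulk tissue, fewer cells of a type and less RNA per cell cannot be told apart.

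Starts of several of these genes lie in DNA rich in CG pairs, the substrate of their products. RefSeq (GRCm38.p6) gave upstream windows of 250 bases for 7 of the 9 genes, 12 windows in all. The 3 printed here belong to Tet2 (chr3:133544391-133544640, minus strand), Tet3 (chr6:83441679-83441928, minus strand) and Dnmt3a (chr12:3806730-3806979, plus strand), the 3 genes with an unadjusted p under 0.05 when the fold changes were compared between the runs, none of which passed adjustment. Each is printed 5′ to 3′ with every CG pair, which reads the same on both strands, in capitals.
Tet2: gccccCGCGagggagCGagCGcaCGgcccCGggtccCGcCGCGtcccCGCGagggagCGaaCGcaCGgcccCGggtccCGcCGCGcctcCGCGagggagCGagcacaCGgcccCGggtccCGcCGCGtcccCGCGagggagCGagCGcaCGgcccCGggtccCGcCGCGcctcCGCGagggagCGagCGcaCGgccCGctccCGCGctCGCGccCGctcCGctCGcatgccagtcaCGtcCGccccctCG
Tet3: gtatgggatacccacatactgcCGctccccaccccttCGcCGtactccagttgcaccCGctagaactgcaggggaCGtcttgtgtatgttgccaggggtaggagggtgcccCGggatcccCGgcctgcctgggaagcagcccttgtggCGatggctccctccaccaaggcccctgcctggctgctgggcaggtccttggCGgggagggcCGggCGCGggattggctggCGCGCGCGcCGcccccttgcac
Dnmt3a: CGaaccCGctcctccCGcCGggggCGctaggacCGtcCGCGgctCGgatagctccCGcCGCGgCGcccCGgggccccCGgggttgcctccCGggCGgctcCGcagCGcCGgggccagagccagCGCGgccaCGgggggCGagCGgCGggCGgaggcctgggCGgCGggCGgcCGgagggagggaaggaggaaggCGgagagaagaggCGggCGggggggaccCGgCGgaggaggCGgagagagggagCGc
The Tet2 window held 51 CG pairs and only 0.067% of the 32851 windows in the reference held as many. The printed Dnmt3a window, 1 of 3 for that gene, held 38, reached by 1.88% of windows, and its other windows held 40 and 15. The window with 40 (chr12:3806910-3807159) overlaps the printed one. Tet3 held 17, reached by 23.5%. The median window held 6, and 92.1% held at least 1. Across the 12 windows of these genes the number ran from 2, for a start of Dnmt1, to the 51 of Tet2. None of the printed windows overlaps an exon of its own gene in GENCODE M21, but 174 bases of the Tet3 window lie in an exon of the divergent noncoding gene B230319C09Rik. All 3 lie upstream of RefSeq starts but inside the GENCODE M21 bounds of their genes. No GENCODE M21 transcript of Dnmt3a held the bases just after the start that follows its printed window. No methylation was measured here, so the letters say nothing about the state of these promoters.

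On GRCm38, Dnmt1 (ENSMUSG00000004099) lies at chr9:20907209-20959888 on the minus strand, Dnmt3a (ENSMUSG00000020661) at chr12:3806007-3914443 on the plus strand, Dnmt3b (ENSMUSG00000027478) at chr2:153649450-153687730 on the plus strand and Uhrf1 (ENSMUSG00000001228) at chr17:56303321-56323486 on the plus strand. The minus-strand Tet genes lie at chr10:62804570-62908996 (Tet1, ENSMUSG00000047146), chr3:133463679-133545139 (Tet2, ENSMUSG00000040943) and chr6:83362373-83459084 (Tet3, ENSMUSG00000034832). Mbd1 (ENSMUSG00000024561) at chr18:74267605-74282732 and Mbd2 (ENSMUSG00000024513) at chr18:70568189-70626131 are on the same chromosome and strand. All 9 are protein-coding. Reads were counted over exons, and with the strand setting not stated, reads from antisense partners cannot be told apart. Dnmt3a shares 133 exonic bases with the antisense gene Dnmt3aos (0 to 5 counts per mouse) and Tet2 shares 43 with Gm42567 (0 to 11 counts).

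Per exonic kilobase, the methyl-CpG reader Mbd2 stood highest and the de novo enzyme Dnmt3b and the maintenance factor Uhrf1 lowest. This order depends on merged exonic length, 3214 bases for Mbd2 and 16642 for Dnmt3a, which need not match the transcripts expressed. In mean CPM over the 22 mice, Dnmt3a (58.8), Dnmt1 (57.7) and Tet3 (48.7) stood above Mbd2 (43.4). Over the 22 mice, Mbd2 averaged 13.5 ± 2.15 RPKM (SD), the maintenance methyltransferase Dnmt1 7.82 ± 2.85 RPKM, and the reader Mbd1, which also carries CXXC zinc fingers, 5.43 ± 1.42 RPKM. Dnmt3a averaged 3.54 ± 0.446 RPKM. Among the dioxygenases, Tet3 (2.91 ± 0.685 RPKM) stood above Tet2 (1.74 ± 0.431 RPKM), and Tet2 above Tet1 (0.777 ± 0.125 RPKM). Uhrf1 (0.118 ± 0.0761 RPKM) and Dnmt3b (0.116 ± 0.0619 RPKM) were nearly level.

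**Figure D1:**
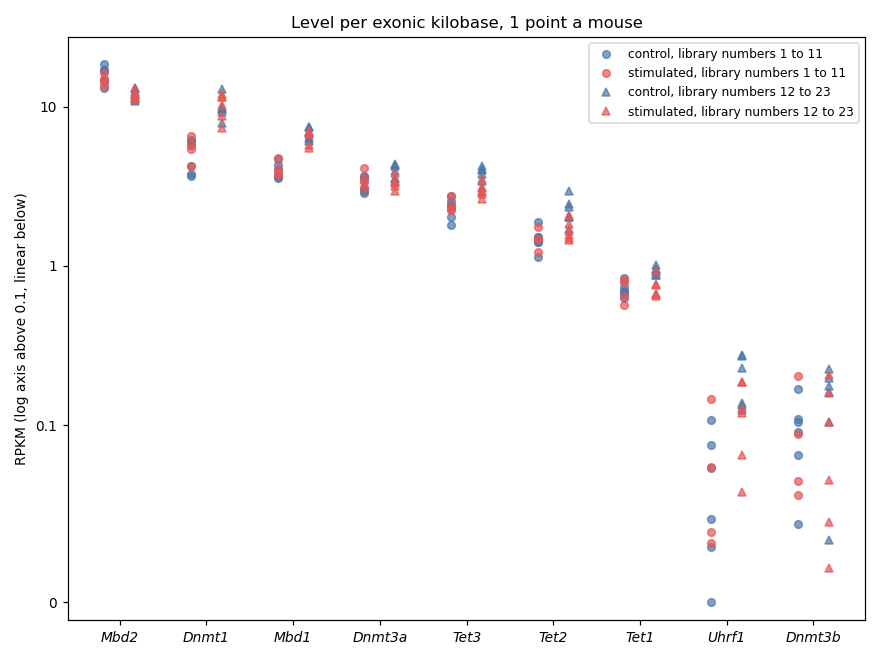
RPKM of each gene (vertical axis, logarithmic above 0.1 and linear below) in 22 mice, with genes ordered by their mean, circles for library numbers 1 to 11 and triangles for 12 to 23, blue for control and red for stimulated. The mean falls from 13.5 RPKM for Mbd2 to 0.116 RPKM for Dnmt3b, and Dnmt1 and Mbd1 sit higher in the second run while Mbd2 sits lower.

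Most steps in this order of RPKM were seen within single mice. Dnmt1 was above Mbd1, Tet3 above Tet2, Tet2 above Tet1 and Tet1 above Uhrf1 in 22 of 22 mice. Mbd2 exceeded Dnmt1 in 19 mice, in 10 of 10 of the first run but in 9 of 12 of the second. Mbd1 exceeded Dnmt3a in 20 mice and Dnmt3a exceeded Tet3 in 19. The last 2 places could not be ordered, since Uhrf1 was above Dnmt3b in only 10 of 22 mice. Of the de novo enzymes, Dnmt3a was by far the more abundant, at 17.1 to 170.2 times the RPKM of Dnmt3b in the same mouse (median 33.4).

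Dnmt3b and Uhrf1 were close to the limit of the counts. Dnmt3b had 4 to 43 counts per mouse and Uhrf1 0 to 39, against 764 to 3444 for Dnmt1. Control 3 had no Uhrf1 count, which at its depth allows up to 0.0852 CPM (3 counts, counting error only). Markers of dividing cells, in which Uhrf1 is best known, summed to 23.2 to 48.5 CPM over 7 genes. The related gene Uhrf2, by contrast, stood at 49.7 ± 8.57 CPM in controls and 51.7 ± 9.93 CPM in stimulated mice. Dnmt3l, a catalytically inactive partner of the de novo enzymes, had 0 to 19 counts and fell below the minimum for testing.

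Stimulated and control mice were compared first over all 22 animals. None of the 9 genes passed the test. With edgeR's quasi-likelihood test and Benjamini-Hochberg adjustment over 17524 genes, 0 of 9 had an adjusted p under 0.05, as did 0% of all genes, and the smallest adjusted p of any gene was 0.436. At an unadjusted p under 0.05 there were also 0 of 9, against 3.61% of all genes. The fold changes of 7 genes were negative and of 2 positive, with a median log2 fold change of -0.14, against 0.01 for all genes tested. Without controls 9 and 11 the median of the 9 was -0.05, with Tet3 at -0.04, Dnmt3a at -0.03 and Uhrf1 at -0.05.

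Among the writers, Dnmt3a ranged from 47.8 to 72.7 CPM in controls (median 59.8) and from 49.4 to 68.2 CPM in stimulated mice (median 56.1), a log2 fold change of -0.09 (SE 0.09, unadjusted p = 0.319). Dnmt1 ran from 26.9 to 95.04 CPM in controls (median 51.8) and from 31.4 to 88.2 CPM in stimulated mice (median 59.2), a log2 fold change of 0.17 (SE 0.22, unadjusted p = 0.46). The groups overlapped almost completely for both enzymes. Dnmt3b had means of 0.641 ± 0.304 CPM in controls and 0.528 ± 0.335 CPM in stimulated mice, and Uhrf1 0.543 ± 0.387 and 0.453 ± 0.239 CPM. Their standard errors on the log2 scale were 0.35 and 0.45, the widest of the 9, so changes of about that size could go undetected. No limit of detection was estimated.

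Tet1 and Tet2 had the smallest p-values of the 9. Tet1 averaged 12.7 ± 1.99 CPM in controls and 11.2 ± 1.62 CPM in stimulated mice (log2 fold change -0.17, SE 0.10, unadjusted p = 0.105), and 9 of 10 stimulated mice were below the control median. For Tet2 the means were 31.5 ± 8.81 and 27.0 ± 4.07 CPM (log2 fold change -0.22, SE 0.14, unadjusted p = 0.121), with 8 of 10 stimulated mice below the control median. Tet3 averaged 50.8 ± 14.2 and 46.1 ± 6.66 CPM (log2 fold change -0.14, SE 0.14, unadjusted p = 0.327), with 7 of 10 below. For all 3 the stimulated range lay inside the control range but for 1 mouse of Tet1.

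The readers had close means in the 2 groups. Mbd1 averaged 36.0 ± 10.3 CPM in controls and 36.9 ± 9.03 CPM in stimulated mice (log2 fold change 0.04, SE 0.16). Mbd2 averaged 44.8 ± 7.90 and 41.7 ± 5.46 CPM (log2 fold change -0.10, SE 0.10). All 9 adjusted p-values rounded to 1.

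**Figure D2:**
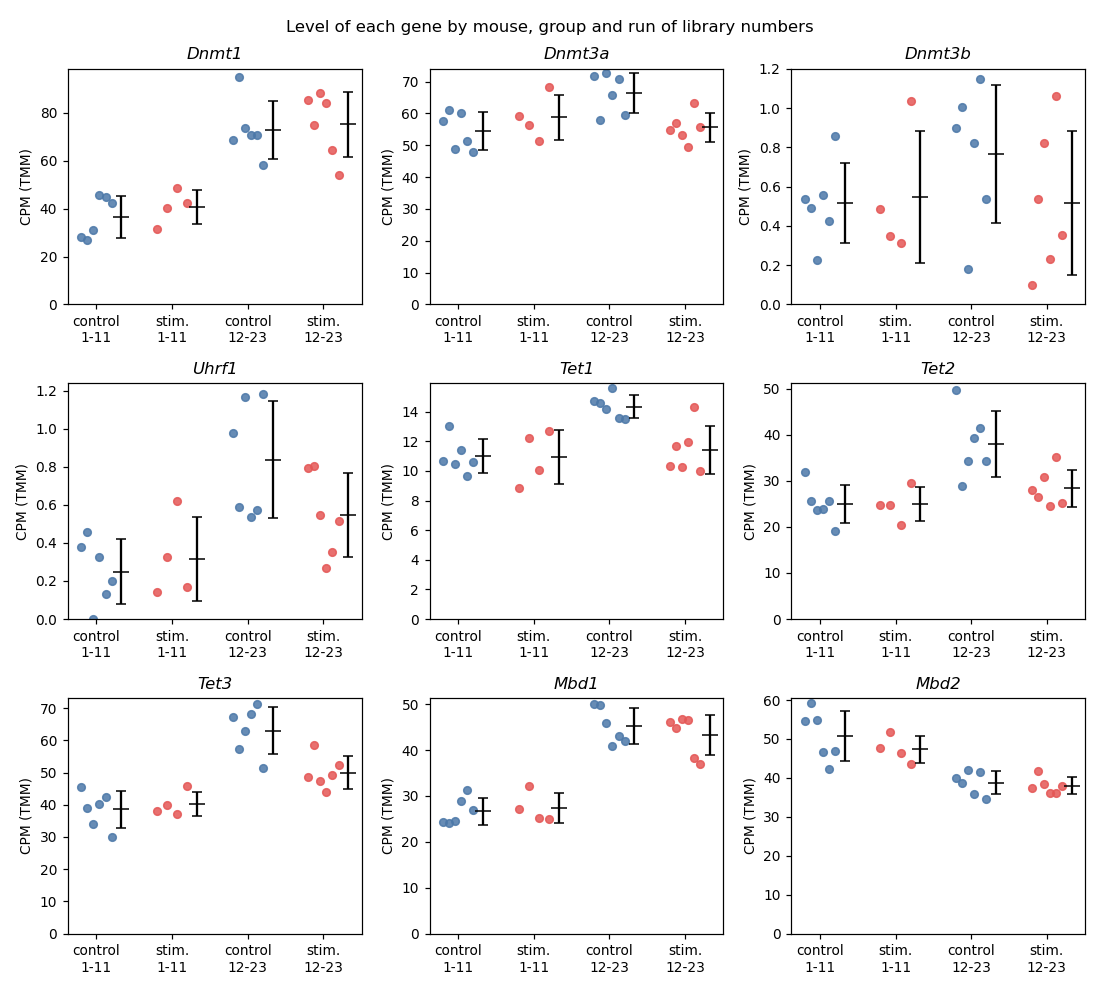
CPM after TMM scaling (vertical axis, from 0) for each of the 9 genes, 1 point a mouse, by group and by run of library numbers, with the mean and SD in black beside each set. In library numbers 12 to 23 the stimulated mice sit low for Tet1, Tet2, Tet3 and Dnmt3a (5 of 6 below every control for Tet1 and Dnmt3a), which is not seen in 1 to 11.

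With the run as a covariate, the spread within groups shrank and 2 of 9 genes reached an unadjusted p under 0.05, both lower in stimulated mice. The background in that fit was 11.5% of all genes, and 5.45% in the lower direction. Tet2 was lower by a log2 fold change of -0.23 (SE 0.10, unadjusted p = 0.0298, adjusted p = 0.392) and Tet1 by -0.18 (SE 0.08, unadjusted p = 0.0382, adjusted p = 0.412). Tet3 had a log2 fold change of -0.16 (unadjusted p = 0.0648). None passed the adjusted threshold. Without controls 9 and 11, 0 of 9 genes had an unadjusted p under 0.05 in the same fit, where 1430 of the 17524 genes tested did. The log2 fold changes of Tet2 and Tet1 were then -0.21 (unadjusted p = 0.0683) and -0.17 (unadjusted p = 0.0754), and those of Tet3 and Dnmt3a moved from -0.16 and -0.09 to -0.11 and -0.04.

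The comparison was then made within each run. Within library numbers 1 to 11 the fold changes of the Tet genes were near 0. Tet1 was 8.83, 12.2, 10.0 and 12.7 CPM in these mice and 9.67 to 13.0 CPM in 6 controls (median 10.7), and Tet2 was 24.8, 24.7, 20.5 and 29.6 CPM against 19.12 to 31.8 CPM (median 24.7). Tet3 was 38.0, 39.9, 37.3 and 45.7 CPM against 30.01 to 45.6 CPM (median 39.7), and Dnmt3a was 59.3, 56.4, 51.4 and 68.2 CPM against 47.8 to 61.1 CPM (median 54.5). The log2 fold changes were 0.01 for Tet1, 0.01 for Tet2, 0.07 for Tet3 and 0.13 for Dnmt3a. They were 0.17 for Dnmt1, 0.05 for Mbd1 and -0.09 for Mbd2. Of the 9 genes, 8 had a positive fold change, and 0 of 9 reached an unadjusted p under 0.05, against 5.56% of all genes.

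Within library numbers 12 to 23, 4 of 9 genes had an unadjusted p under 0.05 and all 4 were lower in stimulated mice, the 3 dioxygenases and Dnmt3a. The background in that run was 12.4% of genes in either direction and 8.3% in the lower direction. None of the 4 passed adjustment over all genes, where the smallest adjusted p among them was 0.263. Without control 8 it was 0.0855 (Tet2), where 48 of all genes passed, and without control 11 it was 0.543. The median log2 fold change of the 9 was -0.36, and 0.00 over all genes.

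Tet1 ran from 13.5 to 15.6 CPM in the 6 controls of this run (median 14.4) and from 10.0 to 14.3 CPM in the 6 stimulated mice (median 11.0). Of the stimulated mice, 5 lay below every control. The log2 fold change was -0.36 (SE 0.10, unadjusted p = 0.0031, adjusted p = 0.267). Tet2 ran from 28.9 to 49.7 CPM in controls (median 36.8) and from 24.6 to 35.1 CPM in stimulated mice (median 27.2), and 4 of 6 stimulated mice were below every control. Its log2 fold change was -0.46 (SE 0.13, unadjusted p = 0.00278, adjusted p = 0.263). Tet3, the most abundant dioxygenase, ran from 51.5 to 71.1 CPM (median 65.0) against 44.0 to 58.5 CPM (median 48.9), again with 4 of 6 below every control. This was the smallest p among the 9 (log2 fold change -0.37, SE 0.09, unadjusted p = 0.00107, adjusted p = 0.263).

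Dnmt3a, which acts in the opposite direction on DNA, also had a negative fold change in this run that did not pass adjustment. It ran from 58.1 to 72.7 CPM in controls (median 68.3) and from 49.4 to 63.4 CPM in stimulated mice (median 55.3), with 5 of 6 stimulated mice below every control and a log2 fold change of -0.29 (SE 0.09, unadjusted p = 0.00342, adjusted p = 0.274). All 6 stimulated mice were below the control median for each of these 4 genes, and in none were the groups fully separated. Dnmt1 (log2 fold change 0.01), Mbd1 (-0.10) and Mbd2 (-0.06) had unadjusted p-values of 0.929, 0.268 and 0.417 in this run. Uhrf1 was 0.535 to 1.18 CPM in controls and 0.266 to 0.802 CPM in stimulated mice (log2 fold change -0.65, SE 0.33, unadjusted p = 0.0647), and Dnmt3b was 0.179 to 1.15 CPM and 0.099 to 1.06 CPM.

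**Figure D3:**
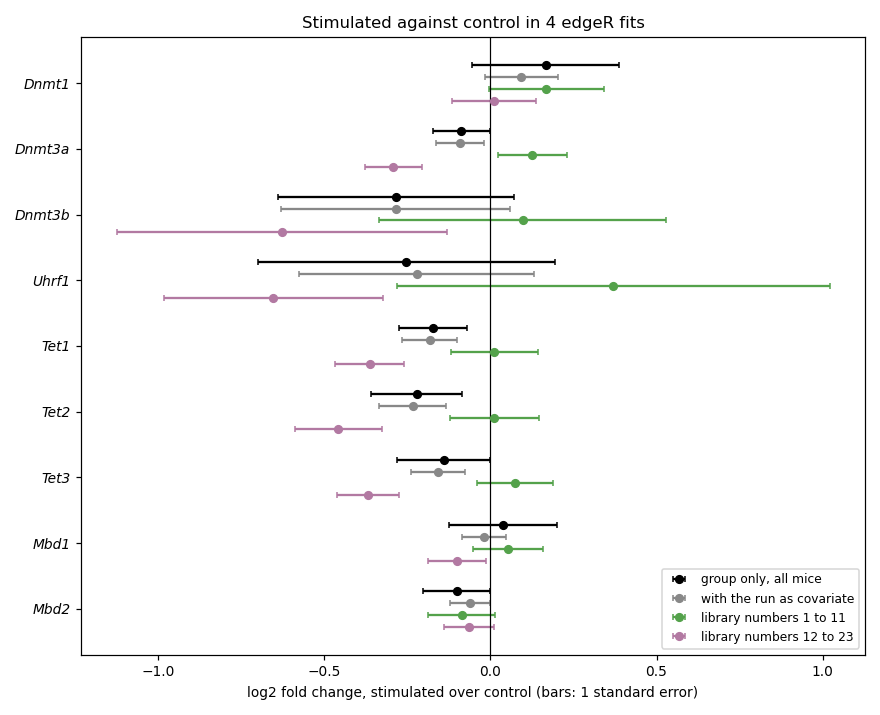
Log2 fold change of stimulated over control (horizontal axis, bars of 1 SE) for each gene in 4 edgeR fits, over all mice without and with the run as covariate and within each run. The purple points for library numbers 12 to 23 lie left of 0 for Dnmt3a (-0.29), Tet1 (-0.36), Tet2 (-0.46) and Tet3 (-0.37), while the green points for 1 to 11 lie at or right of 0.

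The difference between the runs was tested directly as an interaction of group and run. At an unadjusted p under 0.05 the fold change differed for 3 of 9 genes, against 8.01% of all genes. The interaction, the log2 fold change in the second run minus that in the first, was -0.37 for Dnmt3a ( SE 0.13, unadjusted p = 0.00832). For Tet3 it was -0.39 (SE 0.15, unadjusted p = 0.0136) and for Tet2 -0.42 (SE 0.19, unadjusted p = 0.0379), and Tet1 narrowly missed (-0.33, SE 0.16, unadjusted p = 0.0501). Adjusted over all genes, none of these was under 0.558.

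Some cell markers also had an unadjusted p under 0.05 within library numbers 12 to 23, as did 12.4% of all genes (8.3% in the lower direction). None of these markers passed adjustment. Oligodendrocyte markers (8 of 8 present) summed to 3550 to 19620 CPM in the controls of library numbers 12 to 23 (median 5107) and to 2335 to 4535 CPM in the stimulated mice (median 3618), and each of the 8 had a negative fold change with an unadjusted p under 0.05 (median log2 fold change -1.33). At the same threshold, Top2a (log2 fold change -1.54) was lower among 6 tested markers of dividing cells. Of these 6, 4 had a negative and 2 a positive fold change (median -0.37). The 7 dividing-cell markers together summed to a median of 31.4 CPM in the controls of this run and 31.0 CPM in its stimulated mice. The progenitor marker Pdgfra (-0.20) was lower among 2. Slc17a7 (0.18) was higher among 7 neuronal markers, and no astrocyte or microglia marker reached that threshold. In library numbers 1 to 11 the oligodendrocyte markers summed to 3191 to 6265 CPM in controls and 3367 to 5792 CPM in stimulated mice. Mitochondrial genes took a median of 1.51% of counts in the controls of the second run and 1.05% in its stimulated mice. Without controls 9 and 11, the same 4 genes of the second run kept an unadjusted p under 0.05, where 875 of all genes did. Their adjusted p was then 0.94, and their log2 fold changes were -0.38 for Tet1 (unadjusted p = 0.00711), -0.45 for Tet2 (0.00798), -0.31 for Tet3 (0.00796) and -0.22 for Dnmt3a (0.0306). Leaving out these 2 mice does not measure the part of the marker difference in these values, which was not tested.

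The run itself separated the 9 genes much more than stimulation did. Between library numbers 12 to 23 and 1 to 11, with the group in the fit, 7 of 9 genes passed an adjusted p under 0.05, 6 higher and 1 lower in the second run. Of all genes tested, 68.1% passed and 33.7% were higher. Dnmt1 rose from 38.1 ± 7.96 CPM in 10 mice to 74.0 ± 12.3 CPM in 12 (log2 difference 0.95, SE 0.11, adjusted p = 3.04e-08). Mbd1 rose from 26.9 ± 2.92 to 44.3 ± 4.15 CPM (0.72, SE 0.07, adjusted p = 6.09e-10), whereas Mbd2 fell from 49.4 ± 5.49 to 38.4 ± 2.49 CPM (-0.36, SE 0.06, adjusted p = 7.1e-06). For these 3 genes the runs did not overlap, as for 26.1% of all genes.

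The dioxygenases rose in order of abundance. Tet3 was 0.53 higher on the log2 scale (SE 0.08, adjusted p = 2.83e-06), Tet2 0.42 (SE 0.10, adjusted p = 0.000779) and Tet1 0.24 (SE 0.08, adjusted p = 0.0134). Uhrf1 rose by 1.32 (SE 0.36, adjusted p = 0.00209) from 0.275 ± 0.182 CPM. Dnmt3a (0.12, adjusted p = 0.139) and Dnmt3b (0.25, adjusted p = 0.528) did not pass. Ratios between the genes moved with the run as a result. The RPKM of Dnmt1 was a median of 1.52 times that of Dnmt3a in the first run and 2.36 times in the second. Markers of oligodendrocyte progenitors summed to 31.3 to 42.5 CPM in the first run and 89.0 to 119.9 CPM in the second, without overlap, and cortical neuron markers to 8661 to 10729 CPM and 11205 to 14938 CPM, also without overlap. In the fit between the runs, 4 of 5 astrocyte markers passed, all higher in the second run (median log2 difference 0.67). Of 5 endothelial and mural markers 4 passed higher and 1 lower (0.52), and of 7 neuronal markers 4 higher and 1 lower (0.34). Of 5 microglia markers 2 passed higher and 2 lower, and of 6 tested dividing-cell markers 1 higher and 1 lower. Of 8 oligodendrocyte markers 0 passed. Among all genes tested, 68.1% passed. The part of these markers in the run differences was not tested.

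Within group and run, mouse-to-mouse variation joined Dnmt3a with Tet2 and Tet3. Levels on the log2 CPM scale were centred within the 4 combinations of group and run and correlated over 22 mice, which share libraries and depth, so the values are descriptive. Pearson's r was 0.70 between Dnmt3a and Tet2, 0.69 between Dnmt3a and Tet3 and 0.63 between Tet2 and Tet3. Tet1 was closest to Dnmt3a, at 0.46. Dnmt1 went with the reader Mbd1 (0.65) and against Mbd2 (-0.41), and had negative values with Dnmt3a (-0.34) and Tet2 (-0.36). Over the 36 pairs the median was 0.09, and 22 pairs were above 0. Without centring the median was 0.41, with 0.93 between Dnmt1 and Mbd1 and -0.80 between Mbd1 and Mbd2, values that carry the difference between the runs.

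**Figure D4:**
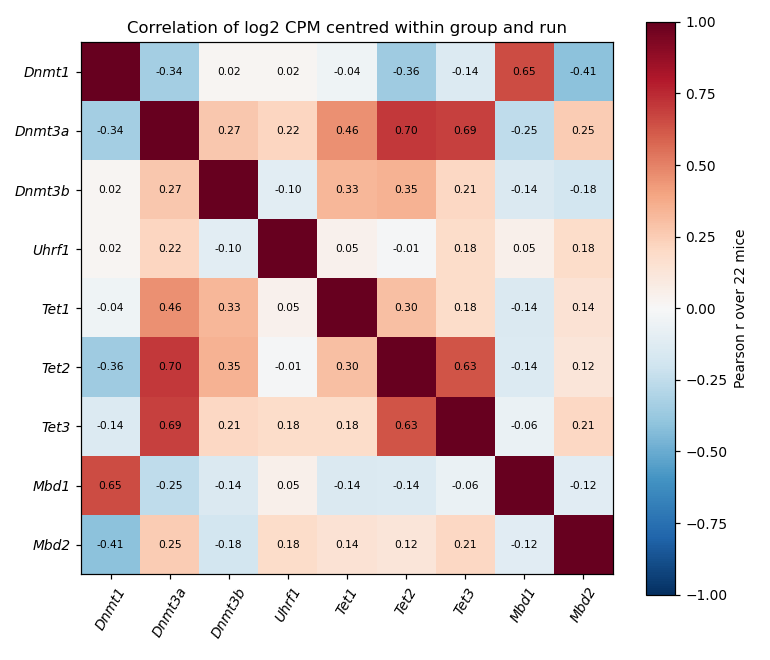
Pearson's r of log2 CPM centred within group and run over 22 mice, for each pair of the 9 genes, on a scale from blue at -1 to red at 1. The 3 pairs among Dnmt3a, Tet2 and Tet3 are red (0.63 to 0.70), as is the pair of Dnmt1 and Mbd1 (0.65).

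Across all tested genes, the closest in centred profile to Dnmt3a were A330023F24Rik (r = 0.89), the imprinted noncoding gene Meg3 (0.86) and Myo9b (0.85). A330023F24Rik was also second closest to Tet2 (0.88), after Ccpg1 (0.90) and before Gm10827 (0.87). Tet3 was closest to Arid3b (0.84), and Tet1, at lower counts, to Gm27004 (0.80). Dnmt1 had the closest neighbours of all 9 genes, the translation factor gene Eif4g3 (0.96), Zc3h13 (0.95) and Vcp (0.95). Mbd1 was closest to Phtf1 (0.83) and Mbd2 to Cnih4 (0.86). For Uhrf1 (Fam83h, 0.85) and Dnmt3b (Gm44437, 0.82) the neighbour had as few as 2 counts in a mouse. Each value was picked as among the highest of all tested genes.

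Related genes were described in 7 lists. Over all mice, 0 genes of any list had an unadjusted p under 0.05. The 8 tested of 9 other writers and maintenance factors (such as Uhrf2, the chromatin remodeller Hells and the H3K36 methyltransferases Nsd1 and Setd2) had a median log2 fold change of 0.01, with 5 higher and 3 lower, and with the run as covariate the median was -0.01. The 10 other erasers and base excision repair genes had medians of -0.02 and -0.06. Among them Tdg, the glycosylase that removes the oxidised bases made by the Tet enzymes, stood at 5.24 ± 0.750 CPM in controls and 5.19 ± 1.12 CPM in stimulated mice. Mbd4, the glycosylase of T:G mismatches, stood at 11.6 ± 1.47 and 10.6 ± 1.09 CPM. Apex1, the abasic-site endonuclease, was the 1 gene of this list under 0.05 with the run as covariate, where 11.5% of all genes were (log2 fold change 0.22, SE 0.10, unadjusted p = 0.0361, adjusted p = 0.408). Gadd45b, an activity-induced gene linked to demethylation, had a log2 fold change of 0.16 over all mice (SE 0.16).

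Of the 14 other readers, 8 had a positive and 6 a negative fold change over all mice (median 0.05), and none was under 0.05 with the run as covariate either. Mbd3, a subunit of the NuRD complex that has lost most affinity for methylated DNA, had nearly equal means of 204.5 and 202.9 CPM in the 2 groups but 262.0 ± 25.4 CPM in the first run and 155.3 ± 16.9 CPM in the second. Among 20 corepressor partners, 17 had a positive fold change over all mice (median 0.06), but 10 of 20 did with the run as covariate, where the NuRD subunit Gatad2a was the 1 gene under 0.05 (log2 fold change -0.12, SE 0.06, unadjusted p = 0.0482). Of 16 tested genes that supply methyl groups or oxoglutarate, the S-adenosylhomocysteine hydrolase-like gene Ahcyl1 alone was under 0.05 in that fit (-0.15, SE 0.07, unadjusted p = 0.0461). Taken as shares of their lists, these single genes lie below the 11.5% of all genes.

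Genes known to be silenced by methylation were taken as a further list. Of 12 germline genes whose promoters are methylated in somatic tissue, 3 passed the count minimum, and 0 of these 3 had an unadjusted p under 0.05 in either fit. Among 22 tested imprinted genes, the median log2 fold change was 0.02 over all mice and 0.01 with the run as covariate. In the latter fit Cdkn1c (0.32, SE 0.13, unadjusted p = 0.0214) and Snrpn (0.12, SE 0.06, unadjusted p = 0.0415) were higher in stimulated mice and Meg3 was lower (-0.51, SE 0.22, unadjusted p = 0.0293). These 3 of 22 genes stand against 11.5% of all genes in that fit, and none passed adjustment over all genes, with adjusted p-values of 0.367, 0.416 and 0.39.

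**Figure D5:**
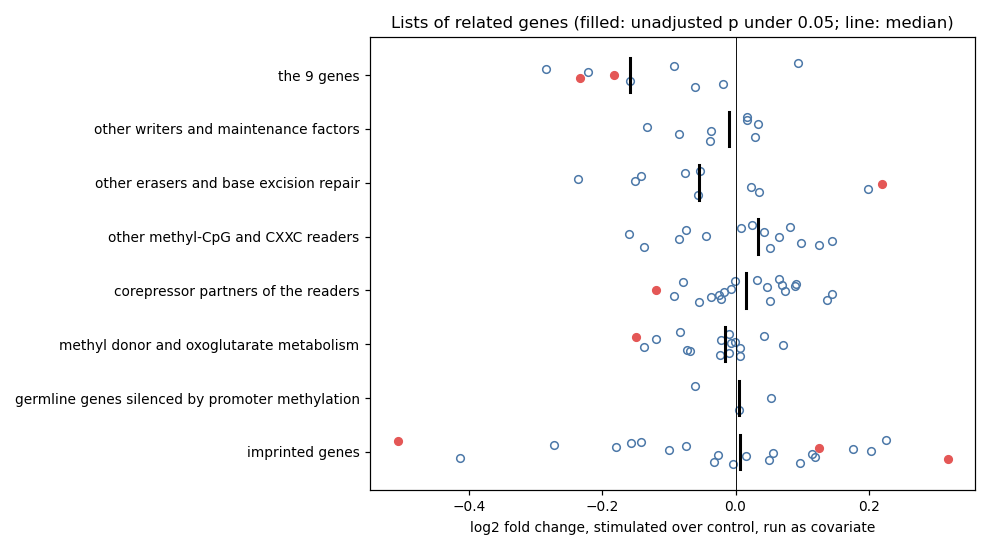
Log2 fold change of stimulated over control with the run as covariate (horizontal axis) for the 9 genes and each tested gene of 7 related lists (rows), filled red where the unadjusted p was under 0.05, with the median of each row as a black line. The 9 genes have a median of -0.16 with Tet1 and Tet2 filled, and the medians of the 7 lists lie between -0.06 and 0.03.

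Within library numbers 12 to 23 the related genes had an unadjusted p under 0.05 about as often as all genes (12.4%). They were 0 of 8 other writers, 1 of 10 other erasers, 1 of 14 other readers, 2 of 20 corepressor genes, 2 of 16 metabolic genes, 0 of 3 germline genes and 3 of 22 imprinted genes. Those named were picked after their values were seen. Among erasers it was the glycosylase Neil1 (log2 fold change -0.57, unadjusted p = 0.00688), and among readers the CXXC-domain H3K4 methyltransferase Kmt2a (-0.28, unadjusted p = 0.00266). Of the 20 corepressor genes, 1 was lower and 1, Rbbp7, had a log2 fold change of 0.23. The metabolic genes were Mat2a (-0.26), which makes the methyl donor S-adenosylmethionine, and Mtr (-0.29). Of the imprinted genes, Meg3 was lower (-0.98, SE 0.23, unadjusted p = 0.000621, adjusted p = 0.263), Kcnq1ot1 was lower (-0.60) and Cdkn1c higher (0.51). Adjusted over all genes, none of these was under 0.263.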

How the data were processed

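RNA was extracted from the ACC of 22 mice and sequenced. Per the labels and the study's methods, the authors used cutadapt 1.10 for trimming, STAR 2.5.3a for alignment (mm10) and HTSeq 0.6.1p1 for counting over Ensembl genes, and the whole-number counts they deposited were used here. The deposited normalised values (a signal, counts divided by DESeq2 1.22.1 size factors) and the authors' own log2 fold changes, p-values and adjusted p-values were not used. Of 37786 genes, 37772 matched GENCODE M21, which gave positions and exon lengths. Genes reaching 10 counts in 10 or more mice were scaled by TMM and tested by edgeR 4.0.16 (quasi-likelihood, group only) in R 4.3.3. CPM uses TMM library sizes, RPKM divides it by merged exonic length, and log2 CPM adds a prior count of 2. Alternatives used DESeq2 1.42.0 and limma 3.58.1, and those that combined the run with the exclusion of controls 9 and 11, or left mice out of library numbers 12 to 23, were added after seeing the data. The edgeR fits without and with the run were tried on simulated counts. These held no difference between the runs, so the fits were not tested under such a difference. The genes and lists were chosen with earlier results of these data known. All 9 genes are named, with genes of the 7 related lists, but not markers, of unadjusted p under 0.05 without or with the run, Mbd3, Mbd4, Tdg, Uhrf2, Dnmt3l and Gadd45b regardless of p, and the genes closest in centred profile. Genes named within 12 to 23 alone, and markers, were picked after their values were seen. Some listed genes are not reported here by name. Total counts were at least 23090483 per mouse, and Dnmt3b and Uhrf1, with the fewest counts of the 9 genes, had the largest standard errors.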

Additional observations from a re-analysis of the deposited data

Results flagged for a closer look

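For 3 genes the fold change differed between the 2 runs of library numbers by the interaction test. The log2 fold change within 12 to 23 was lower than that within 1 to 11 by an interaction of -0.37 for Dnmt3a (edgeR, unadjusted p = 0.00832), -0.42 for Tet2 (unadjusted p = 0.0379) and -0.39 for Tet3 (unadjusted p = 0.0136). None was significant after adjustment over all genes (smallest adjusted p = 0.558), and 8.01% of all genes had an unadjusted p under 0.05. Without controls 9 and 11 the values were -0.32, -0.44 and -0.36, and Tet1 (-0.36, unadjusted p = 0.0453) joined them. That fit put 696 of 17524 genes under the same threshold, and the adjusted p of all 9 genes rounded to 1. No mouse stood far from the others in the 9 sets tested for it, the 10 stimulated mice for each gene.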

How the results depend on the processing

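None of the 9 genes had an adjusted p under 0.05 between stimulated and control mice in any of the 12 alternatives tried, where the smallest value was 0.263. Within 12 to 23 and without control 8, the smallest adjusted p was 0.0855 (Tet2). The count at an unadjusted p under 0.05 was 0 over all mice, 2 with the run as covariate, 2 with DESeq2's Wald test and the run, and 4 in library numbers 12 to 23 alone, and it was 4 to 5 when mice of that run were left out in turn, where 1421 (without control 11) to 2988 (without control 8) of all genes tested had such a p. Over all genes the count was 632, and it became 2015 with the run, 1430 with the run and without controls 9 and 11, 2184 with the Wald test and the run, 1857 with limma voom and sample weights, 2371 without a count minimum, 974 in 1 to 11 alone and 2165 in 12 to 23 alone. Adjusted over all genes, the Wald test with the run called 33 genes, none of the 9. Of 106 fold changes under alternatives, 94 kept their direction. In library numbers 1 to 11 alone the log2 fold change turned positive for Dnmt3a (0.13), Dnmt3b (0.10), Uhrf1 (0.37), Tet1 (0.011), Tet2 (0.012) and Tet3 (0.074). Mbd1 turned negative with the run (-0.018), with the Wald test and the run (-0.018), in 12 to 23 alone (-0.10) and with the run and without controls 9 and 11 (-0.013). Uhrf1 turned positive under limma voom (0.26). The cause was not tested. Between the runs, 7 of 9 genes passed under other scalings, the Wald test and without the group, and 5 of 7 when 10 counts were required in every mouse, where Tet1 was lost (0.18, adjusted p = 0.0727).

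The replicate numbers did not pair the mice. Same-numbered mice correlated at -0.37 to 0.63, over 0.1 in 8 of 10 pairs and in 3 of 10 after centring within runs. Blocking on the replicate number gave 0 of 9 genes and 1291 of all genes at an unadjusted p under 0.05, with Uhrf1 reversed to 0.065.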
